A study of Mus musculus with 17 samples.

Results

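Axon guidance genes were compared between brains of mice with a HAR1A transgene and brains of normal mice. The 57 genes were listed by family, and the rule that picks them uses no measured value: ephrins and their Eph receptors, semaphorins with plexins and neuropilins, Slits with Robo receptors, and netrins with their receptors. All 57 were found among the 41015 genes of the deposited tables. They fell into 13 families, 26 genes coding for ligands and 31 for receptors, with the netrin-G proteins, which sit on the cell surface, counted as ligands. HAR1A is a human noncoding RNA gene, and the design text names the mice as overexpressing it. All mice had the C57BL/6 background. The level of HAR1A itself was not analysed here. The transgene group had 6 libraries, which all came from lane 4. The control group had 11 libraries, of which 3 were on that lane, 6 on lane 8, 1 on lane 2 and 1 on lane 6 of another flow cell. The labels give no age, sex, brain region, transgene promoter, founder line or pooling, nor whether libraries came from different animals. The p-values therefore rest on library-to-library spread, which may be technical. Libraries are named by group and a number in order of deposition.

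Growing axons steer by cues that attract or repel their tips. Ephrins are tied to the membrane and signal to Eph receptor tyrosine kinases on contact, semaphorins act through plexins with neuropilins as co-receptors for the secreted class 3, Slits repel axons through Robo receptors, and netrin-1 attracts through Dcc and repels through Unc5 receptors. In the adult brain many of these genes stay active at synapses and differ strongly between brain regions. Total RNA of the tissue was sequenced, so fewer cells that use a gene and less of its RNA per cell cannot be told apart.

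The libraries differed in the brain regions their marker genes stand for, and these values belong beside every result below. Summed over 12 telencephalic transcription factor genes, transgene libraries had 793.2 to 1203 CPM (counts scaled to library size, with TMM factors that offset differences in RNA composition) and controls 70.0 to 626.5. The 10 striatal projection neuron genes summed to 1125 to 3182 CPM in transgene libraries and 416.0 to 683.6 in controls. The 15 Hox genes of hindbrain and cord summed to 0.0914 to 0.645 CPM in transgene libraries, where 5 of them had no count in any library, and to 16.6 to 358.6 in controls. The 8 cerebellar granule cell genes summed to 75.0 to 524.4 CPM in transgene libraries and 127.6 to 2982 in controls, and the 8 brainstem neuron genes to 11.8 to 24.1 in transgene libraries and 22 to 343.9 in controls. The 6 thalamus genes summed to 122.1 to 454.3 CPM in transgene libraries and 424.2 to 603.6 in controls. This sum does not stand for each gene of the list. Tested singly (edgeR adjusted p below 0.05), 2 of 5 were lower and 0 higher, where 24.4% of all features were lower. Within lane 4, 1 of 5 was lower, where 12% of features were. Control 7 lay apart from the other controls, with the lowest telencephalic and granule cell sums and the highest brainstem and oligodendrocyte sums. Neuron genes were present throughout (5 genes, 3682 to 5146 CPM in transgene libraries and 3548 to 5414 in controls). The part of this regional difference in the results below was not tested.

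**Figure D1:**
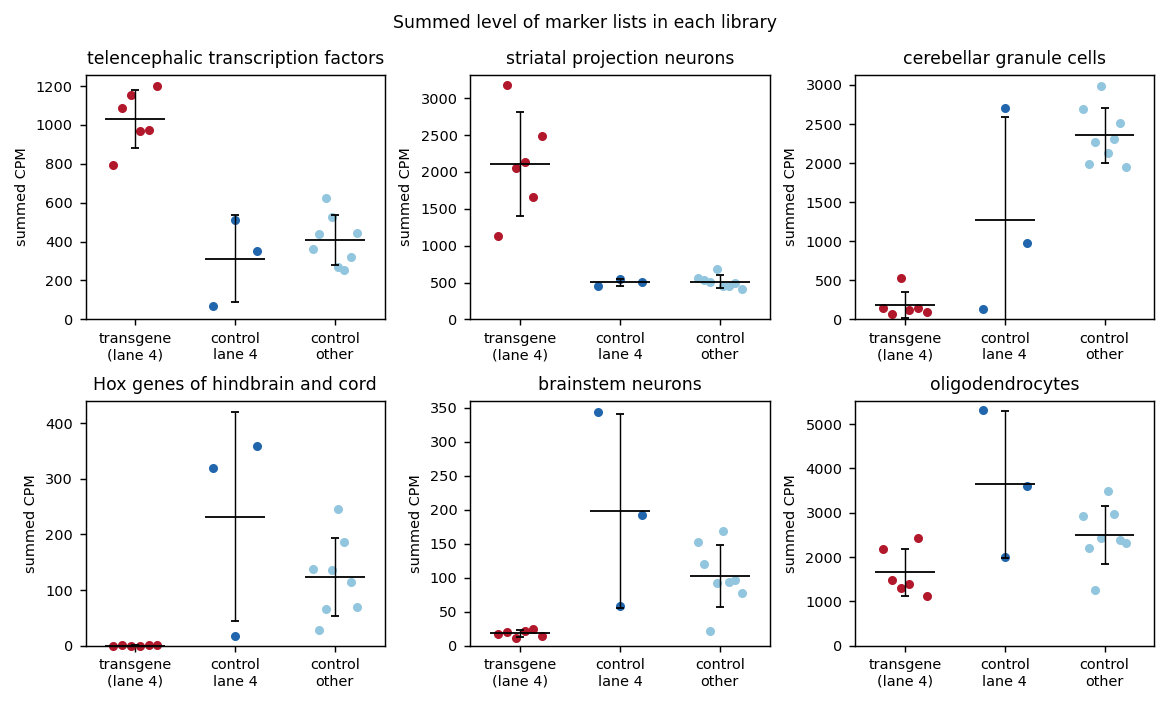
Summed CPM of 6 marker lists in each library, for the 6 transgene libraries, the 3 controls of lane 4 and the 8 other controls; lines are means and bars SD. The Hox sum was at most 0.645 CPM in transgene libraries and at least 16.6 in controls, and control 7 fell among the transgene libraries in the granule cell sum.

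More guidance genes were higher than lower in the transgene libraries. Of 56 members tested, 29 were higher and 9 lower (called at an edgeR adjusted p below 0.05), 17 of them higher and 5 lower by at least 2-fold. Of all 19136 features tested, 47.4% were called, 23% higher and 24.4% lower. The members' share was thus above the background for higher calls and below it for lower calls. The median log2 fold change (transgene over control, so that 1 is a doubling) of members was 0.38, against -0.05 over all features. All transgene libraries lay above all controls for 19 members and below them for 3, where 14.8% of features were without overlap, 10.6% higher and 4.19% lower. Robo3, counted among the 29 and the 19, passed the expression filter only through the transgene libraries. Among ligands 11 of 25 tested were higher and 3 lower, and among receptors 18 of 31 were higher and 6 lower. The background for these counts, and for each family below, is 23% of all features higher and 24.4% lower. The ephrin-A ligand gene Efna1, with 27 counts in all transgene and 28 in all control libraries, did not pass the expression filter. The 18 members that were tested and not called had log2 fold changes from -0.31 to 0.42.

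**Figure D2:**
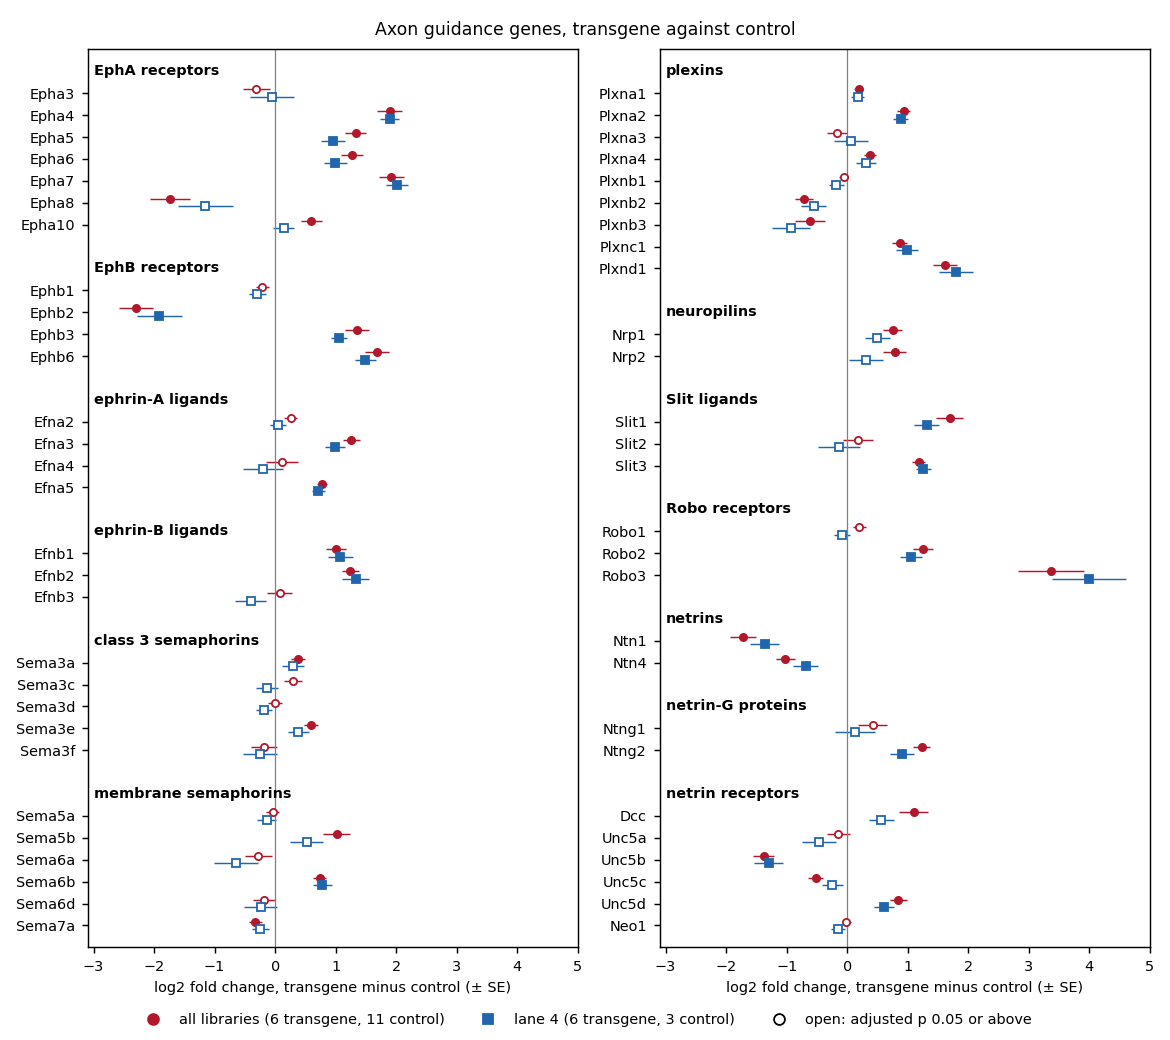
Log2 fold change (transgene minus control, ± SE) of each tested member, over all libraries (circles) and within lane 4 (squares), grouped by family; filled symbols passed an adjusted p of 0.05. Most EphA receptors lay right of 0, both netrins left of it, and Robo3 farthest right at 3.37 over all libraries.

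Because every transgene library was on lane 4, the comparison was repeated with the 3 controls of that lane. Both comparisons use the same transgene libraries and share those 3 controls, so they are not independent. Within lane 4, 20 of 56 members were higher and 4 lower, where 25.6% of 19261 features were called, 13.6% higher and 12% lower. The groups were without overlap for 20 members that were higher and 3 that were lower, against 25.1% of features, 15.9% higher and 9.27% lower. No member was called in opposite directions. The 9 genes called higher over all libraries but not within lane 4 were Epha10, Sema3a, Sema3e, Sema5b, Plxna1, Plxna4, Nrp1, Nrp2 and Dcc. Those called lower over all libraries but not within lane 4 were Epha8, Sema7a, Plxnb2, Plxnb3 and Unc5c. Whether the comparisons differ for any of these genes was not tested. Between the 6 lane 8 and 3 lane 4 controls, 0 of 55 members tested were called by edgeR (0% of 19384 features), and 0 by DESeq2 or limma-voom. An unadjusted p below 0.05 was found for 10 of the 55 members and 1543 of the 19384 features. There 1 member, Efna2, lay lower in lane 8 without overlap, as did 1.17% of features, with 1.36% higher and 2.53% in all. Without control 8, 1 member, Nrp2, was called (log2 fold change -0.97), as were 71 features higher and 17 lower of 20204.

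**Figure D3:**
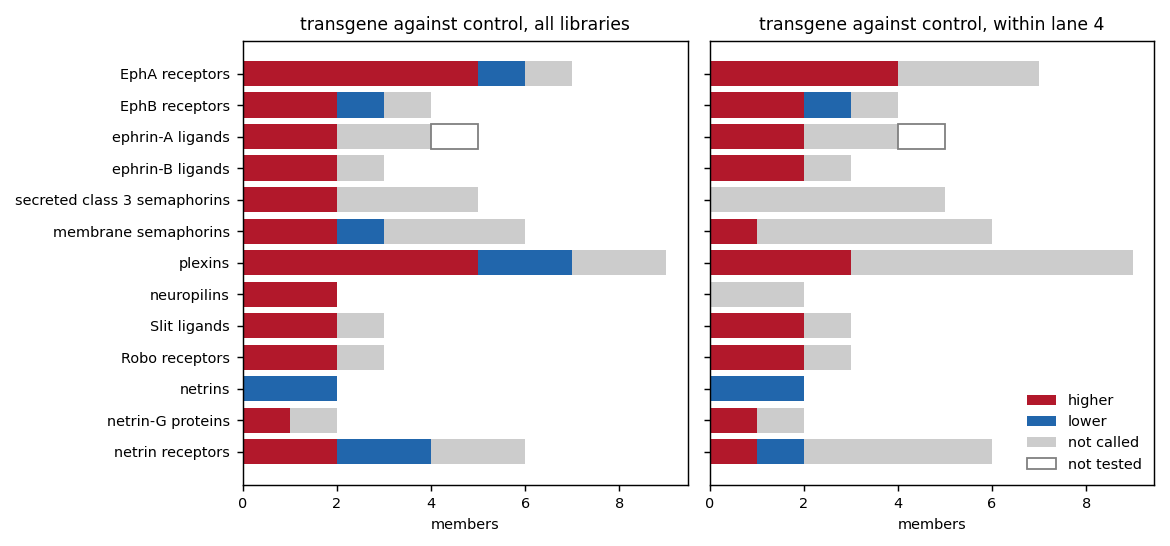
Number of members of each family called higher, called lower, not called or not tested in the transgene libraries, over all libraries (left) and within lane 4 (right). EphA receptors had 5 higher and 1 lower over all libraries, and the class 3 semaphorins had 2 called over all libraries and 0 within lane 4.

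Promoters are printed for the members that moved most without overlap of the groups in either comparison, a pair from each direction, among members with a single promoter in the RefSeq table (build GRCm38.p6, the assembly of mm10). Under these limits 14 members that rose and only 2 that fell could be chosen, so the printed falls were not picked by size. Each runs 5′ to 3′ on the gene's strand from 250 bases before to 50 bases after the start. Capitals mark matches, on either strand, to CAGCTG (a core bound by basic helix-loop-helix factors), TAATTA (a core bound by homeodomain factors) or GGGCGG (the GC box), which do not share letters with one another except where GC boxes run together.
Robo3 promoter (chr9:37433126-37433425, minus strand): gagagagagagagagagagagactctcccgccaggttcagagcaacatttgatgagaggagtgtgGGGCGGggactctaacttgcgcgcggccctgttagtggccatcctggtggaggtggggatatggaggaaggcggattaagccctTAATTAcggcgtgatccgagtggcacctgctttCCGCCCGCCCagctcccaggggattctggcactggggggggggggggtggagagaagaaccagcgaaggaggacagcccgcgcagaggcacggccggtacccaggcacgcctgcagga
Epha4 promoter (chr1:77515039-77515338, minus strand): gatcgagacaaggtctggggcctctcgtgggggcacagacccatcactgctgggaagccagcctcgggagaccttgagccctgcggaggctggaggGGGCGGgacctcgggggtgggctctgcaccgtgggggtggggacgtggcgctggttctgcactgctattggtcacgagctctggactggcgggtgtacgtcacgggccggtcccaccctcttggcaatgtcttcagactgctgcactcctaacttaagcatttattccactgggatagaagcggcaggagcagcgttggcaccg
Ephb2 promoter (chr4:136835963-136836262, minus strand): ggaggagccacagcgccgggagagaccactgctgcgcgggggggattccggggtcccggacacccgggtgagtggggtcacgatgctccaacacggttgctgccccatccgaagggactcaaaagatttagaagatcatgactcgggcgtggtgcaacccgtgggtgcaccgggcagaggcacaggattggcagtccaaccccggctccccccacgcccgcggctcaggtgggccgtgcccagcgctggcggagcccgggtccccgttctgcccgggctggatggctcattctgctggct
Unc5b promoter (chr10:60831532-60831831, minus strand): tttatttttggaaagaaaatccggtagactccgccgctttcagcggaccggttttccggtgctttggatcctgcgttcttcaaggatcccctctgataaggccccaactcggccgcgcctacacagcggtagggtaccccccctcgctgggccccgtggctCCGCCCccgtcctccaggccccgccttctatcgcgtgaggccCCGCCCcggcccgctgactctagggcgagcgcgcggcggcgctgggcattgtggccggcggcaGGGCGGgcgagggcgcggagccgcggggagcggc
GC boxes stood in the Robo3 (3), Epha4 (1) and Unc5b (3) windows and not in that of Ephb2. Over 56 promoters of the 48 members in the table, 40 held a GC box (71.4%), against 35.7% of all 32851 promoters, which include those of predicted and noncoding genes. The share was 22 of 29 promoters of members called higher and 6 of 9 of those called lower. TAATTA stood in 3 of 56 member promoters and 5.29% of all, and CAGCTG in 6 of 56 and 16.3%. A match is a description of letters and not a bound site.

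Of the 7 listed Eph receptors of class A, 5 were higher and 1 lower, beside 23% and 24.4% of all features. Epha1 and Epha2, class A receptors outside the list, were both called lower and are given with the other pathway genes below. Epha7, a receptor with a part in cortical and thalamic axon mapping (mm10 chromosome 4, 28813131 to 28967499), had 13.5, 19.0 and 22.8 CPM as lowest, median and highest transgene value, against 3.09, 4.47 and 10.3 in controls. No control reached the lowest transgene library, and the log2 fold change was 1.92 ± 0.21 (SE, edgeR adjusted p = 8.29e-07), or 2.01 ± 0.18 within lane 4 (adjusted p = 6.52e-05). Epha4, which binds ephrins of both classes and steers corticospinal axons (chromosome 1, 77367185 to 77515088), had 99.9, 125.9 and 154.3 CPM against 18.4, 29.5 and 62.9 in controls. It rose by 1.90 ± 0.21 (adjusted p = 9.68e-07) and by 1.89 ± 0.15 within lane 4 (4.82e-05), again with no overlap. Epha5 and Epha6 rose by 1.33 ± 0.17 and 1.27 ± 0.19, also without overlap, and by 0.96 and 1.00 within lane 4 (adjusted p 0.00485 and 0.00412). Exons of Epha6 overlap a gene on the other strand. Epha10, a receptor without kinase activity, rose by 0.60 ± 0.17 over all libraries (adjusted p = 0.00772) but had an overlapping 30.9 to 41.4 CPM in transgene and 14.2 to 39.4 in control libraries, with control 7 the highest control.

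Epha8 went the other way (chromosome 4, 136929419 to 136956816). It had 13.7, 31.4 and 41.2 CPM as lowest, median and highest transgene value, against 16.0, 95.4 and 161.9 in controls. Only control 7, at 16.0 CPM, lay within the transgene range, and the next control had 63.6. The log2 fold change was -1.73 ± 0.33 (adjusted p = 0.000288) over all libraries and -1.15 ± 0.46 within lane 4 (adjusted p = 0.0883), where the value without control 7 was -1.61 (adjusted p = 0.00545). Epha3 had 13.4 ± 2.31 CPM in transgene and 16.2 ± 5.23 in control libraries (SD, n = 6 and 11; adjusted p = 0.269), and without control 7, the lowest of all at 4.74 CPM, it was called lower (log2 fold change -0.38, adjusted p = 0.0358).

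The class B receptors split. Ephb6, another receptor without kinase activity (chromosome 6, 41605482 to 41620509), had 204.9, 259.7 and 308.1 CPM in transgene libraries against 39.4, 66.2 and 131.7 in controls, with no overlap. It rose by 1.69 ± 0.20 (adjusted p = 2.25e-06), and by 1.49 ± 0.17 within lane 4 (0.000215). Ephb3, which acts with Ephb2 in forming commissures, rose by 1.35 ± 0.20 and varied little among transgene libraries, at 50.8 to 54.0 CPM, against 11.7 to 31.8 in controls. Ephb2, a receptor of midline axons and of glutamate synapses (chromosome 4, 136647539 to 136835988), had 1.26, 2.44 and 4.65 CPM in transgene libraries against 6.36, 14.0 and 23.7 in controls. Every control, control 7 as the lowest, lay above every transgene library, and Ephb2 fell by 2.29 ± 0.28 (adjusted p = 3.39e-06), the largest fall among members, and by 1.92 ± 0.37 within lane 4 (0.00386). Ephb1 was at 15.1 to 19.0 CPM in transgene libraries and 13.9 to 25.4 in controls (log2 fold change -0.21, adjusted p = 0.120). It was called lower without control 3 (-0.25, 0.0449), with scaling by library size only (-0.33, 0.0166) and, within lane 4, without control 8 (-0.43, 0.0348).

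**Figure D4:**
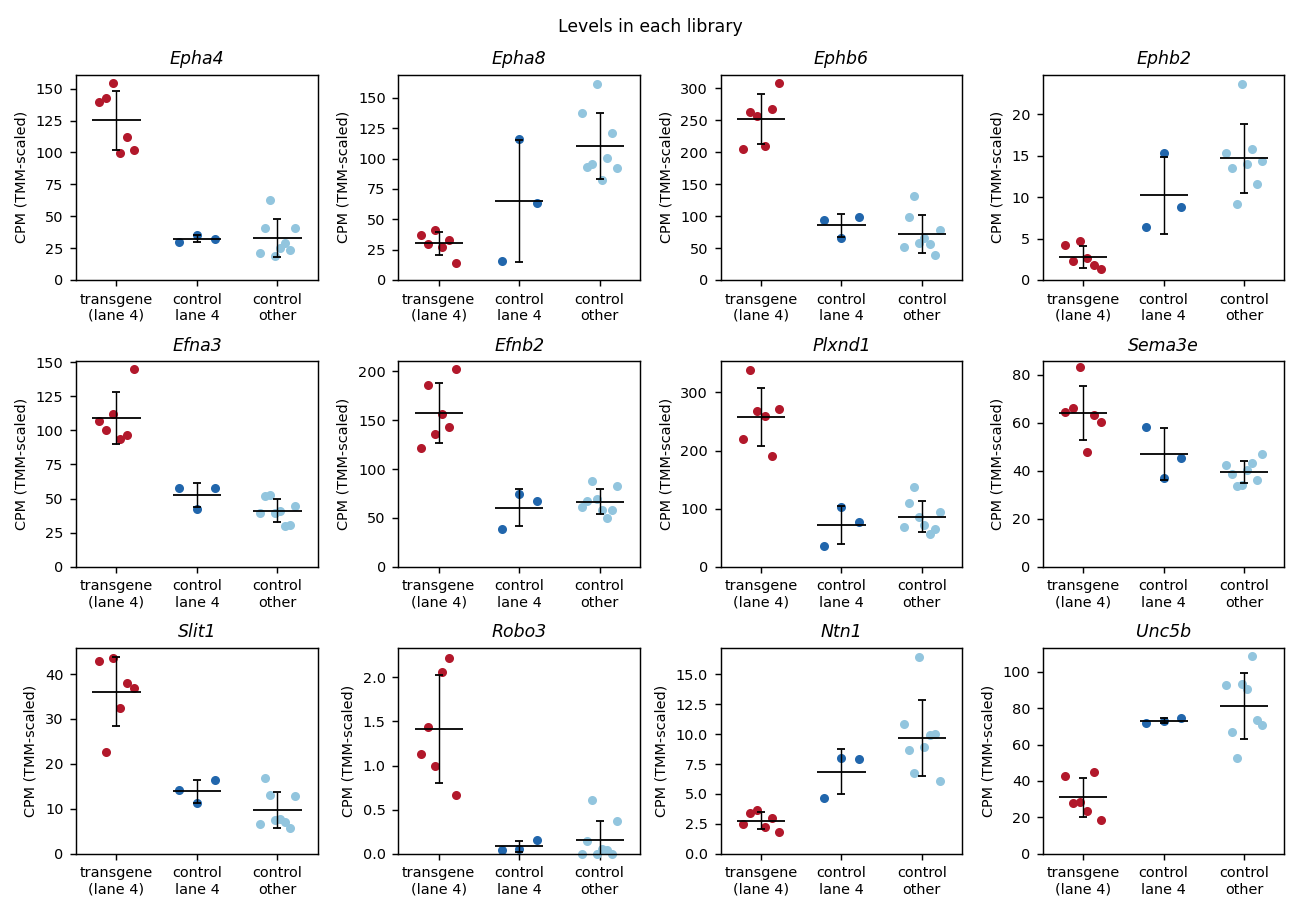
CPM of 12 members in each library, for the 6 transgene libraries, the 3 lane 4 controls and the 8 other controls; lines are means and bars SD. Transgene libraries lie above all controls for Epha4, Ephb6, Efna3, Efnb2, Plxnd1, Slit1 and Robo3, below all controls for Ephb2, Ntn1 and Unc5b, and overlap controls for Epha8 and Sema3e.

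Among the ephrins, 4 of 7 tested were higher and 0 lower, beside 23% and 24.4% of all features. Efna3, which is anchored by a lipid and binds EphA receptors (chromosome 3, 89313899 to 89322965), had 93.3, 103.5 and 144.7 CPM in transgene libraries against 29.7, 42.1 and 58.0 in controls, and rose by 1.26 ± 0.14 (adjusted p = 1.1e-06; 0.99 ± 0.16 and 0.00146 within lane 4). Efna5, the graded repellent of retinal and cortical maps, rose by 0.78 ± 0.08 (adjusted p = 8.07e-07), at 24.7 to 30.7 CPM against 12.8 to 18.0 in controls. Both groups of values stayed apart for both genes. Efnb2, a transmembrane ligand of EphB receptors and Epha4 (chromosome 8, 8617434 to 8661242), had 121.7, 149.9 and 202.0 CPM in transgene libraries against 39.1, 67.2 and 88.0 in controls. It rose by 1.24 ± 0.14 (adjusted p = 1.78e-06) and by 1.33 ± 0.22 within lane 4 (0.00158), and Efnb1 by 1.01 ± 0.16 (6.77e-05) and 1.08 ± 0.20 (0.00342), both without overlap. The third ephrin-B gene, Efnb3, had 221.6 to 346.9 CPM in transgene and 125.4 to 487.1 in control libraries, the extremes being controls 3 and 7 (adjusted p = 0.793). Within lane 4 its log2 fold change was -0.40 (adjusted p = 0.275), and without control 8 it was called lower there (-0.68, adjusted p = 0.0391). Efna2 missed the threshold (log2 fold change 0.25 ± 0.11, adjusted p = 0.0636) and passed it with a value of 0.29 (adjusted p = 0.0323) without control 7; leaving out control 4 or 11 or transgene 2, 3, 4 or 6 also led to a call. Efna4 had 0.457 to 1.02 CPM in transgene and 0.314 to 0.953 in control libraries (adjusted p = 0.747).

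Of the 5 class 3 semaphorins, 2 were higher and 0 lower over all libraries, beside 23% and 24.4% of all features. Sema3e, the class 3 semaphorin that can signal through Plxnd1 without a neuropilin (chromosome 5, 14025276 to 14256689), had 47.7, 63.6 and 83.0 CPM in transgene libraries against 33.8, 40.2 and 58.2 in controls. The groups overlapped only through control 7, the highest control, and transgene 4, the lowest transgene library. The rise was 0.59 ± 0.11 (adjusted p = 0.000309), and within lane 4 the log2 fold change was 0.38 ± 0.17 (0.127), or 0.60 (0.0295) without control 7. Sema3a, a repellent of cortical axons, rose by 0.38 ± 0.12 over all libraries (adjusted p = 0.0139), and by 0.26 with scaling by library size only, where it was not called (0.0721). Sema3c was called higher without control 7, the highest of all libraries at 66.4 CPM (log2 fold change 0.42 and adjusted p = 0.00475, against 0.29 and 0.125 with it). Sema3d and Sema3f had log2 fold changes of -0.001 and -0.18 (adjusted p 0.995 and 0.520).

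Of the membrane semaphorins, 2 of 6 were higher and 1 lower, counts that lie near the 23% and 24.4% of all features. Sema5b (chromosome 16, 35541145 to 35664732) had 2.69, 4.35 and 5.89 CPM in transgene libraries against 1.35, 1.86 and 3.61 in controls, a rise of 1.02 ± 0.22 (adjusted p = 0.000879), and a log2 fold change of 0.52 ± 0.28 within lane 4 (0.196). Sema6b, a ligand of Plxna4, rose by 0.73 ± 0.10 (1.46e-05) and by 0.78 ± 0.16 within lane 4 (0.00528), where the groups did not overlap. Sema7a, which is anchored by a lipid and binds Plxnc1 (chromosome 9, 57940112 to 57962865), had 308.2, 403.7 and 480.2 CPM in transgene libraries against 402.7, 490.6 and 644.8 in controls. It fell by 0.32 ± 0.10 (adjusted p = 0.0151), with much overlap, and was not called without transgene 1, 4 or 6 (adjusted p 0.0574, 0.0849 and 0.0570). Within lane 4 its log2 fold change was -0.24 (adjusted p = 0.245). Sema5a, Sema6a and Sema6d were not called, with log2 fold changes from -0.28 to -0.04.

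Of the 9 plexins, 5 were higher and 2 lower, beside 23% and 24.4% of all features. Plxnd1 (chromosome 6, 115954811 to 115995005), the Sema3e receptor, had 191.4, 263.2 and 338.2 CPM in transgene libraries against 36.3, 76.5 and 136.5 in controls. No library overlapped, and it rose by 1.61 ± 0.20 (adjusted p = 3.6e-06) and by 1.80 ± 0.28 within lane 4 (0.00125). Plxna2 and Plxnc1 rose by 0.94 ± 0.11 and 0.87 ± 0.13, also without overlap, and by 0.88 and 0.99 within lane 4 (adjusted p 0.000763 and 0.00284). An exon of Plxnc1 overlaps a second gene on its own strand. Plxna4 rose by 0.38 ± 0.09 over all libraries (0.00272). Plxna1 was only just called (0.19 ± 0.07, adjusted p = 0.0358), and not without control 1, 5, 6, 9, 10 or 11 (adjusted p 0.0513 to 0.0571) or with scaling by library size only (0.08, 0.378).

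The lower plexins were Plxnb2 and Plxnb3. Plxnb2, with a part in cerebellar granule cell growth (chromosome 15, 89155549 to 89180788), had 2.28, 3.22 and 3.53 CPM in transgene libraries against 3.29, 5.28 and 6.29 in controls. It fell by 0.71 ± 0.15 (adjusted p = 0.000665), and controls 2 and 7 lay within the transgene range. Within lane 4 its log2 fold change was -0.56 (adjusted p = 0.0774), and without control 7 it was called there (-0.71, 0.0460). Plxnb3, found mainly in oligodendrocytes, fell by 0.62 ± 0.25 (0.0480), with transgene values of 24.1 to 54.6 CPM inside the control range of 21.0 to 95.2. It was not called when any 1 of 13 libraries was left out, with adjusted p up to 0.131 without transgene 6. Within lane 4 the log2 fold change was -0.93 (adjusted p = 0.0509), and it was called there without control 8 (-1.25, 0.00775) or transgene 5 (-1.07, 0.0404). The 7 oligodendrocyte marker genes summed to 1110 to 2434 CPM in transgene libraries and 1265 to 5315 in controls, controls 3 and 7 being lowest and highest in that sum as in Plxnb3. The part of oligodendrocyte content in this value was not tested. Plxna3 and Plxnb1 had log2 fold changes of -0.17 and -0.06 (adjusted p 0.426 and 0.567).

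Both neuropilins were higher over all libraries. Nrp1 (chromosome 8, 128358604 to 128503363), the co-receptor for Sema3a and for vascular growth factor, had 29.7, 51.4 and 57.4 CPM in transgene libraries against 18.0, 27.3 and 37.9 in controls. Its rise was 0.75 ± 0.15 (adjusted p = 0.000493) although transgene 2 and transgene 4 lay below the highest control. Within lane 4 the log2 fold change was 0.50 ± 0.21 (0.108), and 0.60 (0.0339) without transgene 2, the lowest transgene library. Nrp2 rose by 0.78 ± 0.19 (0.00241), with control 7 at 13.7 CPM and control 11 at 9.94 inside the transgene range of 9.46 to 16.2. Within lane 4, which holds both of these controls, its log2 fold change was 0.32 (0.456).

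Slit1, Slit3 and Robo2 were higher in transgene libraries. Robo3, which passed the expression filter only through those libraries, is given apart below. Slit1, a brain repellent of forebrain axons (chromosome 19, 41600257 to 41743665), had 22.7, 37.5 and 43.6 CPM in transgene libraries against 5.63, 11.3 and 16.9 in controls. It rose by 1.70 ± 0.22 (adjusted p = 6.86e-06) and by 1.31 ± 0.21 within lane 4 (0.00132), and Slit3 by 1.18 ± 0.11 (2.89e-07) and 1.26 ± 0.12 (9.25e-05), with all transgene libraries above all controls for both. Slit2, the third ligand, was at 6.18 ± 1.21 CPM in transgene and 5.30 ± 2.24 in control libraries (adjusted p = 0.566). Robo2, a Slit receptor, rose by 1.25 ± 0.16 (6.99e-06) and by 1.05 ± 0.19 within lane 4 (0.00248), without overlap. Robo1, the other main Slit receptor, had a log2 fold change of 0.20 ± 0.11 (adjusted p = 0.142), with control 7 the highest of all libraries at 114.6 CPM, and was called without it (0.29, 0.00766).

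Robo3, which lets commissural axons cross the midline and which in mammals binds Slits poorly, had the largest change of all members and the fewest reads of the called ones (chromosome 9, 37415669 to 37433246). Transgene libraries held 11 to 47 counts each and 171 together, controls 0 to 11 each and 29 together. In CPM the lowest, median and highest values were 0.662, 1.28 and 2.22 in transgene and 0, 0.0492 and 0.607 in control libraries. The groups did not overlap, but control 3 at 0.607 came close to transgene 6 at 0.662. The log2 fold change was 3.37 ± 0.54 (edgeR adjusted p = 5.85e-05), and 3.99 ± 0.61 within lane 4 (0.00105). At these counts the size of the change is known only loosely. Robo3 passed the expression filter only through the transgene libraries, where it is high, and was not among the members tested between control lanes. Its call and its lack of overlap are therefore no support of their own.

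Both netrins among the members, Ntn1 and Ntn4, fell. This does not hold for all netrins, as Ntn3, outside the list, rose and is given with the other pathway genes below. Ntn1 (chromosome 11, 68209364 to 68400823), made by midline cells in the embryo and by oligodendrocytes and neurons later, had 1.81, 2.75 and 3.65 CPM in transgene libraries against 4.69, 8.70 and 16.5 in controls. All controls lay above all transgene libraries, control 7 as the lowest, and the fall was 1.72 ± 0.22 (adjusted p = 5.53e-06), or 1.37 ± 0.24 within lane 4 (0.00213). Ntn4, a netrin of basement membranes, fell by 1.03 ± 0.16 (3.53e-05), with 24.7 to 34.7 CPM in transgene libraries against 28.6 to 86.2 in controls, control 7 again lowest. Within lane 4 it fell by 0.69 ± 0.20 (0.0310), and was not called there without control 8 or 11 or transgene 1, 3 or 4 (adjusted p 0.0550 to 0.159, the largest without control 8, where the log2 fold change was -0.40). Of the netrin-G genes, whose products bind Lrrc4 proteins at synapses rather than netrin receptors, Ntng2 (chromosome 2, 29194541 to 29253005) had 12.5, 17.7 and 23.4 CPM in transgene libraries against 5.44, 7.17 and 10.1 in controls. It rose by 1.23 ± 0.14 (2.12e-06) and by 0.90 ± 0.20 within lane 4 (0.00739), without overlap. Exons of Ntng2 overlap a second gene on its strand. Ntng1 was not called (0.42 ± 0.24, adjusted p = 0.154), with 1 library, transgene 1, at 23.3 CPM and all other libraries at 11.8 or below. That library also had the highest thalamus marker sum of the transgene group, at 454.3 CPM against 122.1 to 240.5 in the other transgene libraries, and the part of this in its Ntng1 level was not tested.

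Of the 6 netrin receptors, 2 were higher and 2 lower over all libraries, and 1 was higher and 1 lower within lane 4. These counts lie near the shares of all features, 23% and 24.4% over all libraries and 13.6% and 12% within lane 4. Dcc (chromosome 18, 71253634 to 72351069), the receptor for attraction, had 2.71, 4.00 and 5.04 CPM in transgene libraries against 0.697, 1.80 and 2.85 in controls, a rise of 1.10 ± 0.24 (adjusted p = 0.00103). The groups overlapped slightly, and within lane 4 the log2 fold change was 0.56 ± 0.21 (0.0711), or 0.64 (0.0251) without transgene 6. Unc5b (chromosome 10, 60762593 to 60831581), a receptor for repulsion that is also used by blood vessels, had 18.6, 28.1 and 44.9 CPM in transgene libraries against 52.9, 73.7 and 108.5 in controls. No library overlapped, and Unc5b fell by 1.38 ± 0.18 (5.22e-06) and by 1.30 ± 0.24 within lane 4 (0.00295). The 5 endothelial marker genes summed to 157.4 to 247.0 CPM in transgene libraries and 202.6 to 289.1 in controls, and the part of vessel content in the fall of Unc5b was not tested. Unc5d, a marker of cortical layer 4 and a receptor for Flrt2, rose by 0.84 ± 0.15 (0.000107) and by 0.60 ± 0.17 within lane 4 (0.0221), where without control 11 the value was 0.43 (0.0866). Unc5c, needed for cerebellar development, fell by 0.52 ± 0.12 over all libraries (0.00205), with control 7 the lowest control. It was not called within lane 4 (-0.25, adjusted p = 0.321) or with lane and flow cell in the model (-0.23, 0.271). Unc5a and Neo1, the receptor of repulsive guidance molecules as well as netrin, were not called (log2 fold changes -0.15 and -0.01).

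The deposited rows are transcripts, and reads that fit several features stand in a closing row of their own, so an isoform's count rests on the parts it does not share. The members held 131 rows, 87 with any count, and 72 passed the filter, in 56 genes. Of these 38 were higher and 11 lower, where 44.8% of 23353 rows tested were called, 23.7% higher and 21.1% lower. Of 13 members with several tested rows, 6 had all rows called in 1 direction, 3 had some called, 4 had none, and 0 had rows called in opposite directions. Epha7-202, the row with most of that gene's reads, rose by 2.07 ± 0.22 and Epha7-201 by 1.38 ± 0.19 (edgeR adjusted p 7.17e-07 and 8.29e-06). Sema6d, not called as a gene, had 2 rows that fell, Sema6d-204 by 1.29 ± 0.33 (adjusted p = 0.00361) and Sema6d-206 by 1.32 ± 0.28 (0.000773), beside its main row Sema6d-208 with a log2 fold change of 0.15 ± 0.23 (0.623). Sema6b-201 rose by 0.81 ± 0.11, while the small row Sema6b-202 stood at -0.08 ± 0.26 (adjusted p = 0.840). Whether rows of the same gene differ from one another was not tested. Several genes, such as Epha4, Unc5d and Neo1, had all their counts on 1 of several rows, so their values rest on that transcript alone.

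**Figure D5:**
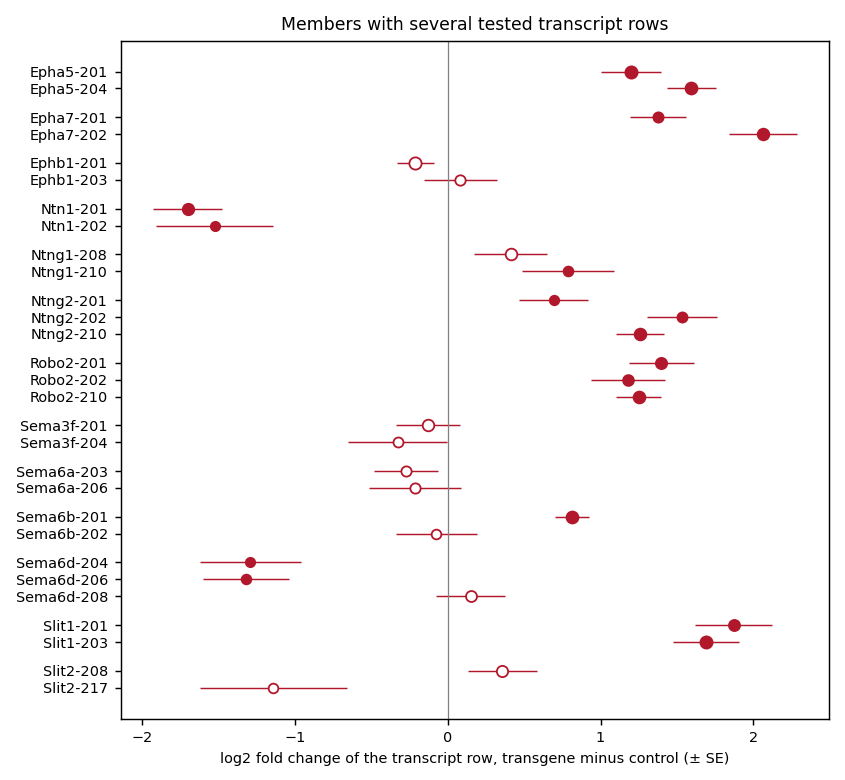
Log2 fold change (transgene minus control, ± SE) of the 29 tested transcript rows of the 13 members with several such rows; filled symbols passed an adjusted p of 0.05 and larger symbols have more counts. Rows of Epha5, Epha7, Ntng2, Robo2 and Slit1 all lay right of 0, both of Ntn1 left of it, and those of Sema6d on both sides.

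Another 85 genes of the same pathways, listed by role, were more evenly divided. Of 81 tested, 30 were higher and 23 lower, beside 23% and 24.4% of all features, and their median change was 0.03 on the log2 scale. Within lane 4 the counts were 20 and 13, beside 13.6% and 12% of features. The share called higher lay above these percentages and the share called lower close to them, and the same percentages are the background for each list of these genes. Among 14 tested relatives of the members, 4 were higher and 5 lower. Sema4a, Ntn3 and Dscam rose by 0.94 ± 0.18, 0.92 ± 0.10 and 0.63 ± 0.12, and Epha1 and Sema4g fell by 1.78 ± 0.37 and 1.10 ± 0.22 (edgeR adjusted p at most 0.000638 for these 5). Sema3b and Epha2 fell by 0.63 ± 0.25 and 0.56 ± 0.19 (adjusted p 0.0478 and 0.0208). Among 20 membrane partners, 8 were higher and 4 lower (5 and 2 within lane 4). Lrrc4c, the ligand of netrin-G1, rose by 1.57 ± 0.18, with 66.1 ± 6.51 CPM in transgene and 21.7 ± 7.07 in control libraries, and Flrt2, the ligand of Unc5d, by 1.41 ± 0.14, with 78.5 ± 11.9 against 28.8 ± 6.72 (SD, n = 6 and 11). Both were without overlap. Boc and Ptch1, receptors in the hedgehog pathway, fell by 1.49 ± 0.28 and 1.17 ± 0.11, and the axonal adhesion gene Cntn2 had 288.0 ± 46.3 CPM in transgene and 572.1 ± 57.8 in control libraries. For Boc, control 7 went against the fall, at 22.2 CPM, below every transgene library (37.7 to 57.5). Met and Flrt1 rose by 0.96 ± 0.24 and 0.68 ± 0.13, and Shh, the ligand of Ptch1, fell by 0.57 ± 0.15 (adjusted p at most 0.00423 for these 3).

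Of 47 intracellular effectors tested, 18 were higher and 14 lower (13 and 9 within lane 4). Ngef, the exchange factor ephexin that EphA receptors act on, rose most, by 2.87 ± 0.34, with 76.6 ± 13.8 CPM in transgene and 10.1 ± 6.61 in control libraries. Chn1, the chimaerin that carries the Epha4 signal, rose by 2.07 ± 0.24 (277.2 ± 42.6 against 64.1 ± 29.2 CPM), and Kalrn, an exchange factor at EphB synapses, by 2.06 ± 0.26 (41.8 ± 4.10 against 9.76 ± 4.75 CPM). For Ngef, Chn1 and Kalrn the groups did not overlap. Exons of Ngef, Chn1 and Chn2, and of Ntn3, Epha1, Sema4a, Dscam and Shh above, overlap other genes. For Ntn3 and Sema4a these include a gene on the same strand. Chn2, the sister gene of Chn1, went down, with 67.1 ± 42.2 CPM in transgene and 504.5 ± 212.7 in controls (a log2 change of -2.95 ± 0.47, edgeR adjusted p = 5.35e-05), and Limk1, a kinase that acts on actin turnover, fell by 1.07 ± 0.25. For Limk1, control 3 lay at 13.3 CPM, just below the transgene range of 13.4 to 18.2. Vav3, an exchange factor, and Srgap2, which acts below Slit and Robo, fell by 0.98 ± 0.18 and 0.88 ± 0.14 (adjusted p 0.000252 and 5.85e-05).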

How the data were processed

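Total RNA of mouse brain was sequenced in 17 libraries (6 transgene, 11 control). The authors deposited raw counts per transcript or assembled locus, 68517 rows for each library; reads were placed on mm10, per the submitters' processing notes. The sources used here name no aligner, counting program, strand setting or annotation. Rows at the end of each table (5) name no feature and stayed out of library sizes and tests. Reads on several features were 41.5% ± 0.92 (SD, n = 17) and reads outside features 8.44% ± 1.57. Reads outside features were 7.44% ± 1.43 in transgene and 8.98% ± 1.41 in control libraries (SD, n = 6 and 11). Reads on several features were 42.1% ± 0.84 in transgene and 41.1% ± 0.81 in control libraries. Such loss lowers the counts of genes with several transcripts, and 13 members have exons that overlap another gene, where reads cannot be told apart without a known strand setting. They are Epha6, Epha10, Ephb1, Efna3, Efna4, Plxna1, Plxna4, Plxnb1, Plxnc1, Nrp1, Ntng2, Unc5a and Unc5c. For Plxnc1, Nrp1 and Ntng2 the other gene is on the same strand. Assigned counts were 17067407 to 22642441 per library.

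Rows were matched to GENCODE M21 by transcript name without version (64380 of 64505), and summed to genes. All features were tested with edgeR 4.0.16 in R 4.3.3 (quasi-likelihood test, TMM, default filter, Benjamini-Hochberg at 0.05); SE came from the F statistic. Log2 CPM for single-library checks used a prior count of 2. Alternatives used DESeq2 1.42.0, limma-voom 3.58.1, other scalings, no filter, lane as a factor, single transcript rows and left-out libraries. The fits were tested on simulated counts. No pair of libraries of a group agreed within counting noise (chi-square per gene at least 9.97). Full values are given, per family, for the called members with the largest rise and fall, and shorter ones for up to 4 called genes per other list and direction (largest change, mean log2 CPM at least 0), of which 1 is not reported here. The rule for members uses no measured value, but the families and lists were proposed with earlier results of these data known.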

Additional observations from a re-analysis of the deposited data

Results flagged for a closer look

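For 2 of 57 members, a single transgene library lay apart from the other 5 by more than 0.625 of the group's range on the log2 CPM scale, the limit that chance passes in about 1 of 20 groups. Efna1 was highest in transgene 3, at -0.11 log2 CPM (15 counts), with the next library at -1.80. Robo1 was lowest in transgene 6, at 6.34 log2 CPM (80.8 CPM), with the next library at 6.56 (94.5 CPM).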

How the results depend on the processing

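Over all libraries the number of members called was 36 to 39 under the other scalings, tests, the missing filter and the single transcript row (27 to 30 higher, 7 to 10 lower), and 26 (20 higher, 6 lower) when sequencing lane and flow cell entered the model, which also cut the calls over all features to 2871 higher and 3016 lower of 19136. Without control 7 and transgene 3 it was 40 (31 and 9), where 4723 features were higher and 4390 lower of 19327. Without controls 3 and 7, an alternative chosen after seeing the data, it was 41 (32 and 9), where 4858 features were higher and 4681 lower of 18823. Leaving out each library in turn gave 36 to 41 (28 to 32 higher, 7 to 10 lower). Within lane 4 these alternatives gave 23 to 26 and the left-out libraries 22 to 27 (19 to 21 higher, 3 to 6 lower). Among controls by lane 0 were called, and 0 to 1 with a library left out. Of the member transcript rows, 6 instead of 11 were called lower in the model with lane and flow cell, which sets the transgene libraries in effect against 3 controls. No member was called higher under one setting and lower under another. Robo1 and Sema3c, called higher over all libraries without control 7, lay below 0 and were not called with lane and flow cell in the model, and Efnb3, called lower within lane 4 without control 8, lay just above 0, and was not called, over all libraries (log2 fold change 0.07). Scaling by library size only moved the median log2 fold change of all features from -0.05 to -0.16 and the calls to 3510 higher and 6361 lower, from 4410 and 4668. No paired analysis was possible because the labels give no replicate numbers that link transgene and control libraries. Depth limits Robo3, Efna1 and Efna4 most, with 200, 55 and 228 counts over all libraries.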

Other observations

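The controls differed among themselves in the members. Of the 29 members that were higher in transgene libraries, control 3 was the highest control for 11 and control 7 for 9, and of the 9 that were lower, control 7 was the lowest control for 6. Control 3 had the highest telencephalic transcription factor sum of the controls, at 626.5 CPM, and the lowest choroid plexus sum, at 66.1 CPM, and control 7 had the lowest telencephalic sum, at 70.0 CPM. Control 3 was the highest control for Epha4, Epha7, Ephb3, Ephb6, Plxnd1, Plxna2, Efna5, Efnb1, Efnb2, Robo2 and Robo3. Control 7 was the highest control for Epha6, Epha10, Efna3, Sema3a, Sema3e, Sema5b, Plxna4, Nrp2 and Ntng2. Efnb3 was lowest in control 3 (125.4 CPM) and highest in control 7 (487.1 CPM), outside the transgene range on both sides.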
